A study of Mus musculus with 100 samples.

Results

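The genes of the major histocompatibility complex (MHC) and of antigen presentation were examined in mouse knee joints. The 40 genes were every row of the count table whose name starts with H2- (31 genes) together with Cd74, B2m, Ciita, Nlrc5, Tap1, Tap2, Tapbp, Psmb8 and Psmb9, of 17310 genes in all. The rule used names only and no measured value. RNA-seq was carried out on 100 whole-joint libraries from MRL/MpJ (33), C57BL/6 (34; C57BL/6J in the study's methods and below) and STR/ort (33) mice whose right knee was injured at 10 weeks of age by a compressive load that ruptures the anterior cruciate ligament. The labels class MRL/MpJ as not susceptible and STR/ort as highly susceptible to post-traumatic osteoarthritis. Uninjured 0-day joints came before any injury (12 libraries, 4 per strain). Injured joints and their uninjured contralateral partners followed at 1-day (30 libraries), 1-week (28) and 2-weeks (30), with 4 or 5 libraries per group in 21 groups. None of the mice is described as carrying a transgene or a deletion, each strain is inbred, and the contralateral joints belong to injured animals.

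Totals ran from 6182016 to 20986027 counts per library, with a median of 10582591. All 6 measured cartilage markers and all 7 bone markers were above 0 in every group, and so were the markers of muscle, synovial fibroblasts, erythroid cells and leukocytes. The samples were mixed tissue, in which fewer cells of a type and less RNA per cell cannot be told apart. The 2-weeks libraries are experimental batch 2 and all others (70 libraries) batch 1, so that batch and time cannot be told apart at 2-weeks; strains and joints were compared within a time point only. The labels name the animal for the 2-weeks joints. Elsewhere nothing states which libraries share an animal, and p-values measure only the spread between these libraries, which may be technical.

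MHC class I molecules are a heavy chain paired with the light chain B2m. They display peptides that the immunoproteasome cuts in the cytosol and that TAP carries into the endoplasmic reticulum, to CD8 T cells. Class II molecules are pairs of an alpha and a beta chain, made mainly by macrophages, dendritic cells and B cells, and they display peptides from engulfed material to CD4 T cells with the help of the invariant chain Cd74 and of the peptide editors H2-DM and H2-O. Nlrc5 and Ciita are the master regulators of class I and class II transcription, and interferon gamma raises both. The region is among the most variable of the mouse genome between strains: MRL/MpJ mice carry the k haplotype and C57BL/6J mice the b haplotype, whose class II alpha gene of the E molecule is disrupted, which gives it the name H2-Ea-ps in the reference. The haplotype of STR/ort is not given in the sources used here. Reads of all strains were aligned to mm10, which is a C57BL/6J sequence, and a difference between strains in RNA level and one in how well reads match the reference cannot be told apart here.

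In the reference, 36 of the 40 genes lie on chromosome 17, between positions 33919478 and 37483554 of GRCm38, interspersed with 116 other genes of the table. The members comprise 2 classical class I heavy chains, 18 other class I genes, 5 class II chains (H2-Ea-ps included), 6 class II accessory genes, the light chain, 3 peptide loading genes (Tap1, Tap2, Tapbp), 2 immunoproteasome subunits (Psmb8, Psmb9), 2 transactivators and H2-Ke6, a metabolic enzyme gene that shares only the name. RefSeq marks 3 of them as pseudogenes (H2-K2, H2-Bl and H2-T10). Many class I genes are close copies. Of all 50-base windows of a gene's transcripts, 53.5% in H2-T22, 50.4% in H2-T10, 36.4% in H2-Q4 and 35.0% in H2-Q6 also occur in another gene, on either strand. The share was 26.5% in H2-Q7, 16.1% in H2-Q2 and 12.8% in H2-D1. More than 10% was shared by 18 members, not all of class I. H2-Ke6 shared 70.5% with Gm20427, Tapbp 23.2%, mostly with Gm19412, and H2-DMb1 22.7% with H2-DMb2. Counts of these genes are uncertain where reads could be split between genes. No such window was shared by H2-Ab1, H2-Eb1, H2-Ea-ps, Cd74 or B2m, and 0.5% were in H2-Aa.

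The promoters of class I and class II genes are known for a shared control module in which an X box and, further downstream, a Y box lie close to the start of transcription. The 120 bases before the start of 8 members are printed to show how much of that module is shared between genes that moved in different ways below (RefSeq, GRCm38.p6, 5′ to 3′ on the gene's strand). Capitals mark exact matches, on either strand, to the Y box core ATTGG or its reverse complement and to the X box letters, which are CCNAGNAAC and, as a variant of it, CCNAGNGAC. The order is H2-Aa at chr17:34287824-34287943 (minus strand), H2-Eb1 at chr17:34305747-34305866 (plus strand), H2-DMb1 at chr17:34153071-34153190 (plus strand), H2-Oa at chr17:34092259-34092378 (plus strand), H2-Ob at chr17:34238785-34238904 (plus strand), H2-D1 at chr17:35262974-35263093 (plus strand), H2-Q2 at chr17:35342187-35342306 (plus strand) and H2-Q4 at chr17:35379497-35379616 (plus strand).
H2-Aa: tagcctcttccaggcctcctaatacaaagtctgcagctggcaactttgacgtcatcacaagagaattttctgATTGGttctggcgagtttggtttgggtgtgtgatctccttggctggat
H2-Eb1: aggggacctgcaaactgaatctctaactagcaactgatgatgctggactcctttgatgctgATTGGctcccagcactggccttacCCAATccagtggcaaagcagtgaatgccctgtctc
H2-DMb1: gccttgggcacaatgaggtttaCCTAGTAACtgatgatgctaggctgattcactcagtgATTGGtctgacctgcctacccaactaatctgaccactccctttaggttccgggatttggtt
H2-Oa: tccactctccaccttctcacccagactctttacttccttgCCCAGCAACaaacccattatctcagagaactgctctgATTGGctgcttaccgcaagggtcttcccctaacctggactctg
H2-Ob: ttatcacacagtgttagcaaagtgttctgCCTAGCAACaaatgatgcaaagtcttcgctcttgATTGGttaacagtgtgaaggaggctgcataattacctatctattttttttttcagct
H2-D1: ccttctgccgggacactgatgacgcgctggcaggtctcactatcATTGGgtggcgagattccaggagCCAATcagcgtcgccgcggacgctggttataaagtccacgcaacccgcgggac
H2-Q2: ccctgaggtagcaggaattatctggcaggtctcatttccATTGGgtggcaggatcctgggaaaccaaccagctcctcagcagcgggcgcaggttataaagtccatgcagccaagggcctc
H2-Q4: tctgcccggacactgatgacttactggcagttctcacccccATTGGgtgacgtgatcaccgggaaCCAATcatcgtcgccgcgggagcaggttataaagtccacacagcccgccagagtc

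Of the 40 members, 29 had a promoter in the RefSeq table (250 bases before to 50 after the start). A Y box match stood in 25 of these 29, against 41.058% of all 27025 promoters of the same length. It was found in 3 of 3 class II chains, 5 of 5 class II accessory genes, 2 of 2 classical class I genes and 10 of 13 other class I genes. The X box letters stood in 8 of 29 (11.508% of all promoters), of which 4 were class II accessory genes (4 of 5), while no match was found in the 3 class II chains. The consensus of the interferon-stimulated response element stood in 3 of 29, B2m among them (3.993% of all promoters). No match of one motif overlapped a match of another. Of the class I promoters printed, H2-D1 and H2-Q4 hold 2 Y box matches each and H2-Q2 holds 1. A match is a description of letters and not a bound site. The X box letters were searched exactly, so a missing match does not show that a promoter lacks an X box.

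Levels are given in CPM, the counts of a gene relative to the TMM-adjusted total of its library. B2m was the most abundant member with a mean of 619 CPM over the 100 libraries, followed by H2-K1 (265), Cd74 (203) and H2-D1 (196). Of the 40 members, 24 had a mean over 10 CPM and 4 a mean under 1 CPM, the lowest being H2-M10.3 with 0.113 CPM. Per kilobase of exon, the 0-day means of B2m were 889.9 CPM per kb in C57BL/6J, 624 in MRL/MpJ and 749 in STR/ort. Those of H2-D1 were 102, 24.2 and 91.5 CPM per kb in the same order of strains.

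In uninjured 0-day joints, MRL/MpJ had the lowest levels of the classical class I gene H2-D1, of the class II beta chains H2-Ab1 and H2-Eb1 and the highest of H2-Ea-ps, H2-Q1 and H2-Q2. A gene was called where the Benjamini-Hochberg adjusted p of edgeR's quasi-likelihood test was below 0.05 and the fold change above 1.5. Between C57BL/6J and MRL/MpJ, 14 of 40 members (35.0%) were called, 9 higher and 5 lower in C57BL/6J, against 15.9% of all 17310 genes (9.64% higher and 6.26% lower) and 24.1% of the 116 other genes of the same stretch of chromosome 17. Between STR/ort and MRL/MpJ, 18 were called (45.0%), 8 higher and 10 lower in STR/ort, against 14.8% of all genes (8.34% higher and 6.44% lower) and 28.4% of the neighbours. Between STR/ort and C57BL/6J, 12 were called (30.0%), 3 higher and 9 lower in STR/ort, against 13.8% (7.82% higher and 5.99% lower) and 14.7%. The median log2 difference of the members was 0.384, 0.137 and -0.242 in these 3 comparisons, beside 0.0143, 0.00698 and -0.0553 over all genes. With removal of unwanted variation by 1 factor (RUVg, after the study's methods) the 12 calls between STR/ort and C57BL/6J became 4, and H2-Ab1, H2-Eb1, H2-Aa, Cd74, Nlrc5 and Ciita were not among them, each under the fold threshold or past the adjusted p. With 2 factors the 14 calls between C57BL/6J and MRL/MpJ became 5, and Tapbp, Tap1, Nlrc5, H2-DMa, H2-M3, H2-Q1, H2-Q2, H2-Q10 and H2-K2 were not among them. The share of all genes called with RUVg is not given here, so these losses are not shown to be particular to the members.

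**Figure D1:**
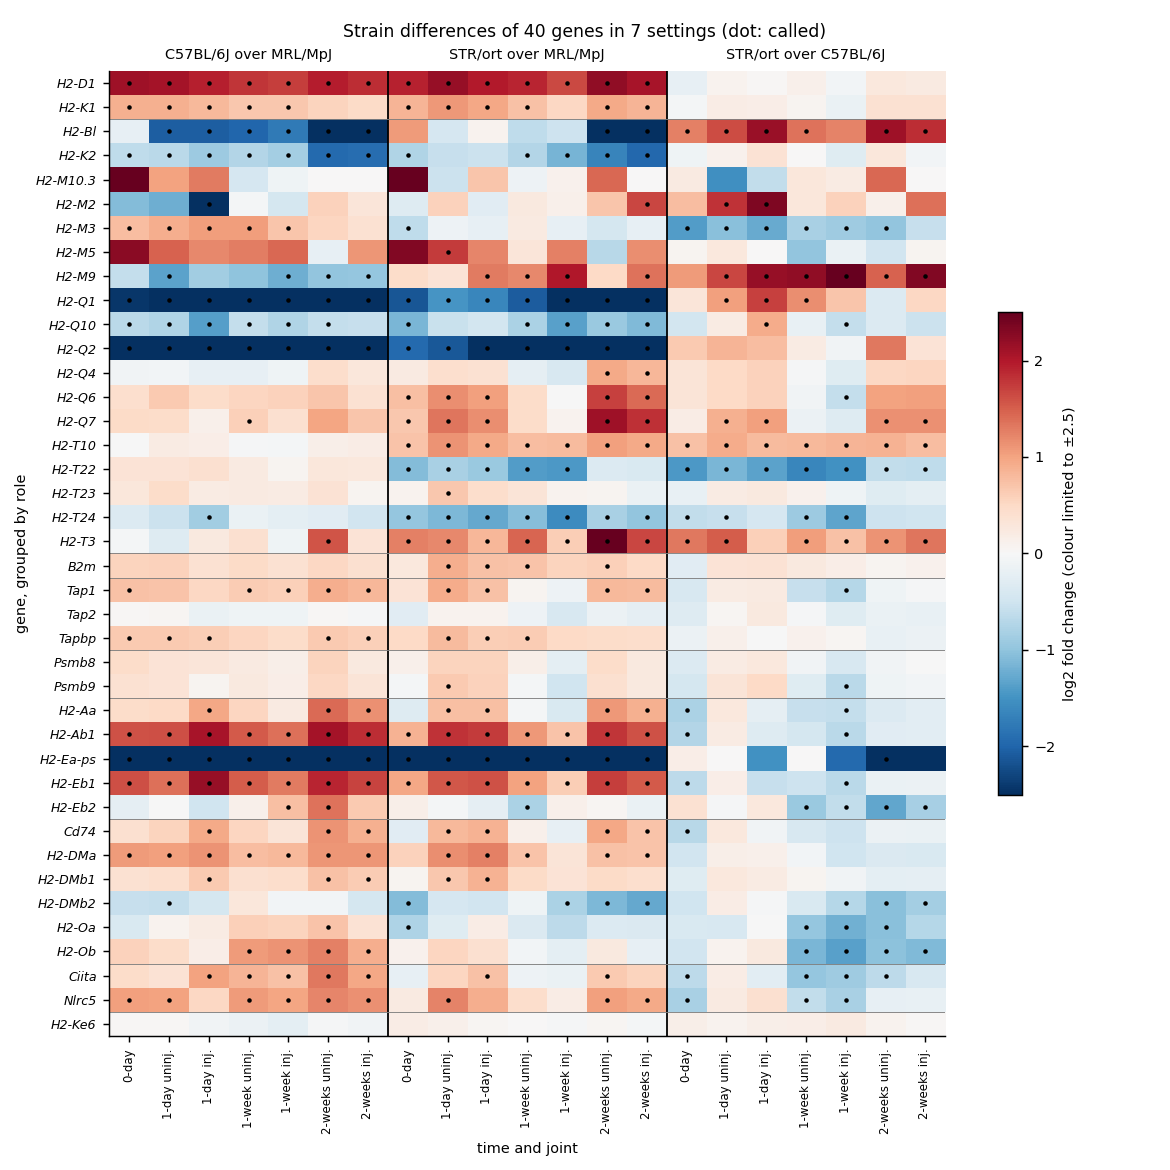
Log2 fold changes of the 40 members (rows, grouped by role from class I at the top through B2m, peptide loading and immunoproteasome to class II, accessory genes, transactivators and H2-Ke6) between 2 strains in the 7 settings of time and joint (columns); red is higher in the strain named first, blue lower, and a dot marks a called gene. H2-D1, H2-Ab1 and H2-Eb1 are red and H2-Ea-ps, H2-Q1 and H2-Q2 blue with a dot in all 7 columns of both comparisons with MRL/MpJ. Colours of H2-M2, H2-M5 and H2-M10.3 rest on very low levels.

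Over the 7 settings (0-day, and both joints at the 3 later times), 8 members were called in the same direction every time between C57BL/6J and MRL/MpJ, against 3.33% of all genes (1.84% higher and 1.5% lower). Higher in C57BL/6J were H2-D1, H2-Ab1, H2-Eb1 and H2-DMa, and lower were H2-Ea-ps, H2-Q1, H2-Q2 and H2-K2. With RUVg of 2 factors this count was 4, and the 0-day calls of H2-DMa (1.35, adjusted p = 0.133), H2-Q1 (-1.38, adjusted p = 0.709), H2-Q2 (-4.78, adjusted p = 0.0767) and H2-K2 (-0.66, adjusted p = 0.548) were lost on the adjusted p, each log2 difference staying past the fold threshold. Between STR/ort and MRL/MpJ the count was 9 (4.94% of all genes, 2.79% higher and 2.15% lower), with H2-D1, H2-Ab1, H2-Eb1, H2-T10 and H2-T3 higher and H2-Ea-ps, H2-Q1, H2-Q2 and H2-T24 lower in STR/ort. Between STR/ort and C57BL/6J it was 2 (2.06%, 0.994% higher and 1.07% lower), H2-T10 being higher and H2-T22 lower in STR/ort. This count was 0 with RUVg of 1 factor and 1 without any one of 6 libraries, C57BL/6J 2-weeks uninjured replicates 4 and 5 and the STR/ort 2-weeks replicates 1 and 2 of both joints. The comparisons of STR/ort and of C57BL/6J with MRL/MpJ share the MRL/MpJ libraries. In single settings 9 to 24 members were called. Between C57BL/6J and MRL/MpJ, the uninjured and then the injured joints of 1-day, 1-week and 2-weeks gave 16, 19, 17, 18, 22 and 18 called members, beside 14.8, 16.3, 8.53, 9.47, 9.83 and 11.5% of all genes. For STR/ort and MRL/MpJ the same series was 24, 22, 18, 14, 24 and 24 members, beside 22.6, 20.3, 24.4, 29.5, 13.8 and 18.9%. For STR/ort and C57BL/6J the same series was 10, 9, 13, 19, 13 and 9 members, beside 10.5, 12.4, 22.2, 25.1, 9.78 and 10.4%. In all, 36 of 40 were called in at least 1 strain comparison. The share of all genes called in at least 1 of these comparisons is not given here, so this count is not shown to be particular to the members. Members with no call in any of the 7 settings numbered 12, 5 and 15 in the 3 comparisons, against 69.8%, 54.5% and 58.3% of all genes.

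**Figure D2:**
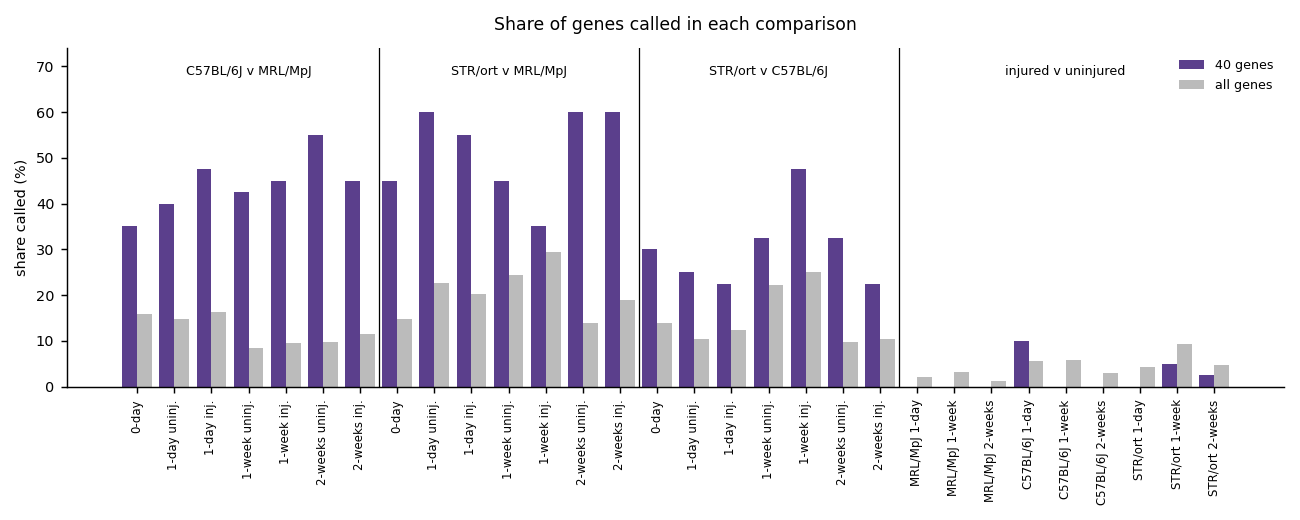
Share of genes called (vertical axis, percent) among the 40 members (purple) and among all 17310 genes (grey) in 21 strain comparisons and 9 comparisons of injured with uninjured joints. The members' bar is the taller in the 21 strain comparisons, whereas in 8 of the 9 injury comparisons it is at 0 or below the grey bar, the exception being C57BL/6J at 1-day.

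H2-D1 and H2-K1 encode the classical class I heavy chains. The 0-day level of H2-D1 was 57.6, 73.0, 60.6 and 59.0 CPM in the 4 MRL/MpJ libraries, 278, 234, 263 and 279 in C57BL/6J and 254, 238, 222 and 230.5 in STR/ort. Every MRL/MpJ library thus lay below every other library. The log2 difference from MRL/MpJ was 2.12 (SE 0.086, adjusted p = 2.11e-12) for C57BL/6J and 1.92 (SE 0.086, adjusted p = 1.07e-11) for STR/ort in edgeR's quasi-likelihood test. Over the 7 settings it ran from 1.73 to 2.12 and from 1.65 to 2.22, without overlap of libraries in any of them. STR/ort and C57BL/6J differed by -0.20 to 0.25 and H2-D1 was called in none of the 7. For H2-K1 the 0-day levels were 155, 177, 165 and 167 CPM in MRL/MpJ, 301, 283, 295 and 308 in C57BL/6J and 321, 307, 268 and 288 in STR/ort. The order of strains was the same as for H2-D1 with a smaller gap, 0.88 (SE 0.073, adjusted p = 4.19e-08) for C57BL/6J and 0.84 (SE 0.073, adjusted p = 6.54e-08) for STR/ort. H2-K1 was called in 5 of 7 settings for C57BL/6J and 6 of 7 for STR/ort against MRL/MpJ.

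The ratio of H2-D1 to H2-K1 CPM within a library separated MRL/MpJ from the other strains. In batch 1 it was 0.302 to 0.442 (median 0.372) in 23 MRL/MpJ libraries, 0.728 to 0.921 (0.843) in 24 C57BL/6J libraries and 0.665 to 0.995 (0.816) in 23 STR/ort libraries. In batch 2 it was 0.332 to 0.38 in MRL/MpJ, 0.887 to 1.02 in C57BL/6J and 0.769 to 1.21 in STR/ort, with 10 libraries each. The ranges of MRL/MpJ did not meet those of the other strains in either batch.

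The light chain B2m, on chromosome 2, was at 507, 517, 518 and 602 CPM in MRL/MpJ, 739.9, 770.2, 673 and 878 in C57BL/6J and 766, 724, 479.5 and 606 in STR/ort at 0-day. All C57BL/6J libraries lay above all MRL/MpJ libraries in each of the 7 settings, by 0.38 to 0.57 on the log2 scale, but the fold never passed 1.5 and B2m was called in none. In STR/ort it was called higher than in MRL/MpJ in 4 of 7 settings. Tapbp, the bridge between TAP and empty class I molecules, was at 43.8 to 50.2 CPM in MRL/MpJ, 64.7 to 77.3 in C57BL/6J and 62.3 to 67.7 in STR/ort, and was called higher than in MRL/MpJ in 5 and 3 of 7 settings. Tap1, one chain of the peptide pump, ran from 19.5 to 25 CPM in MRL/MpJ and from 35.2 to 40.4 in C57BL/6J, a log2 difference of 0.73 (SE 0.099, adjusted p = 1.44e-05). It was called in 5 of 7 settings for C57BL/6J and 4 of 7 for STR/ort. With RUVg of 2 factors the 0-day calls of both genes in C57BL/6J were lost, the log2 difference being 0.30 (adjusted p = 0.515) for Tapbp and 0.88 (adjusted p = 0.062) for Tap1. The other chain of the pump, Tap2, and the immunoproteasome subunit Psmb8 were called in no strain comparison, with 0-day ranges of 42.7 to 55.5, 41.7 to 52.5 and 33.5 to 42.2 CPM for Tap2 and 63.4 to 77.8, 86.1 to 97.5 and 68.3 to 82.2 CPM for Psmb8 in MRL/MpJ, in C57BL/6J and then in STR/ort. The subunit Psmb9 was at 17.9 to 23.02 CPM in MRL/MpJ, 23.8 to 26.0 in C57BL/6J and 15.4 to 22.1 in STR/ort at 0-day. It was called once against MRL/MpJ in STR/ort and once lower in STR/ort than in C57BL/6J. Of 11 further class I pathway genes (Psmb10, Psme1, Psme2, Erap1, Tapbpl, Calr, Canx, Pdia3, Cd1d1, Mr1 and Irf1), 0 were called between any 2 strains at 0-day.

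The regulator Nlrc5 was at 8.49, 9.65, 10.8 and 8.79 CPM in MRL/MpJ, 17.4, 16.9, 19.4 and 20.2 in C57BL/6J and 12.5, 12.8, 9.19 and 8.84 in STR/ort. It was higher in C57BL/6J than in MRL/MpJ by 1.02 (SE 0.13, adjusted p = 9.38e-06), and lower in STR/ort than in C57BL/6J with a log2 difference of -0.80 (SE 0.13, adjusted p = 8.53e-05). Both calls were lost on the adjusted p with RUVg of 2 factors, at log2 differences of 0.93 (adjusted p = 0.181) and -0.61 (adjusted p = 0.174), and with 1 factor the second was -0.57, under the fold threshold. STR/ort and MRL/MpJ overlapped. Ciita was at 4.89, 7.56, 5.68 and 5.34 CPM in MRL/MpJ, 8.15, 8.44, 9.22 and 5.50 in C57BL/6J and 6.89, 6.75, 2.61 and 4.17 in STR/ort, and only STR/ort against C57BL/6J was called (-0.65, SE 0.24, adjusted p = 0.0373), with overlapping libraries. That call was lost with RLE size factors (adjusted p = 0.0515), in a fit of the 2 strains alone (adjusted p = 0.0841) and without any one of C57BL/6J replicates 1, 2 and 3 or STR/ort replicates 3 and 4, the log2 difference being -0.43 without STR/ort replicate 3. Over the 7 settings Nlrc5 was called higher in C57BL/6J than in MRL/MpJ in 6 and Ciita in 5.

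Among the class II chains, the beta chain H2-Ab1 was at 31.6, 41.2, 32.9 and 41.9 CPM in MRL/MpJ, 108, 94.8, 115 and 113 in C57BL/6J and 80.1, 75.9, 52.4 and 58.7 in STR/ort at 0-day. The 3 strains did not overlap. The log2 difference from MRL/MpJ was 1.59 (SE 0.13, adjusted p = 2.16e-08) for C57BL/6J and 0.87 (SE 0.13, adjusted p = 3.43e-05) for STR/ort, and the difference of STR/ort from C57BL/6J was -0.73 (SE 0.12, adjusted p = 0.000116). The other beta chain, H2-Eb1, was at 23.5, 26.9, 25.3 and 25.9 CPM, 82.2, 66.3, 73.7 and 78.9 CPM and 56.2, 51.1, 42.2 and 46.9 CPM in the same order, again with no overlap. Its differences were 1.61 (SE 0.095, adjusted p = 4.5e-10), 0.96 (SE 0.097, adjusted p = 4.28e-07) and -0.65 (SE 0.088, adjusted p = 1.68e-05). Without STR/ort replicate 3 the last of these was -0.58, under the fold threshold. The alpha chain H2-Aa was at 49.9, 58.0, 66.1 and 63.1 CPM in MRL/MpJ, 87.3, 67.5, 76.8 and 83.8 in C57BL/6J and 62.2, 54.6, 33.5 and 37.2 in STR/ort. It differed less from MRL/MpJ (0.46, SE 0.15, adjusted p = 0.0214 in C57BL/6J, below the fold threshold) and was called between STR/ort and C57BL/6J only (-0.78, SE 0.15, adjusted p = 0.000492). H2-Eb2, a low beta chain gene, was at 0.861 to 2.24, 0.884 to 1.72 and 1.04 to 2.45 CPM and was not called at 0-day.

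A beta and an alpha chain of the same class II molecule could be set against each other within a library. The ratio of H2-Ab1 to H2-Aa CPM in batch 1 was 0.488 to 0.709 in MRL/MpJ, 1.05 to 1.5 in C57BL/6J and 1.01 to 1.62 in STR/ort, and in batch 2 it was 0.441 to 0.544, 0.747 to 0.886 and 0.79 to 0.948. MRL/MpJ lay apart in both batches and the other strains overlapped. H2-Eb1 and H2-Aa are chains of different class II molecules. Their ratio gave the same split, with 0.383 to 0.548, 0.707 to 1.09 and 0.697 to 1.26 in batch 1. For H2-Aa to Cd74 the ranges of all 3 strains overlapped in batch 1, with medians of 0.45, 0.447 and 0.413. In batch 2 it was 0.307 to 0.364 in MRL/MpJ, 0.379 to 0.435 in C57BL/6J and 0.326 to 0.408 in STR/ort, so that MRL/MpJ and C57BL/6J did not overlap there.

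**Figure D3:**
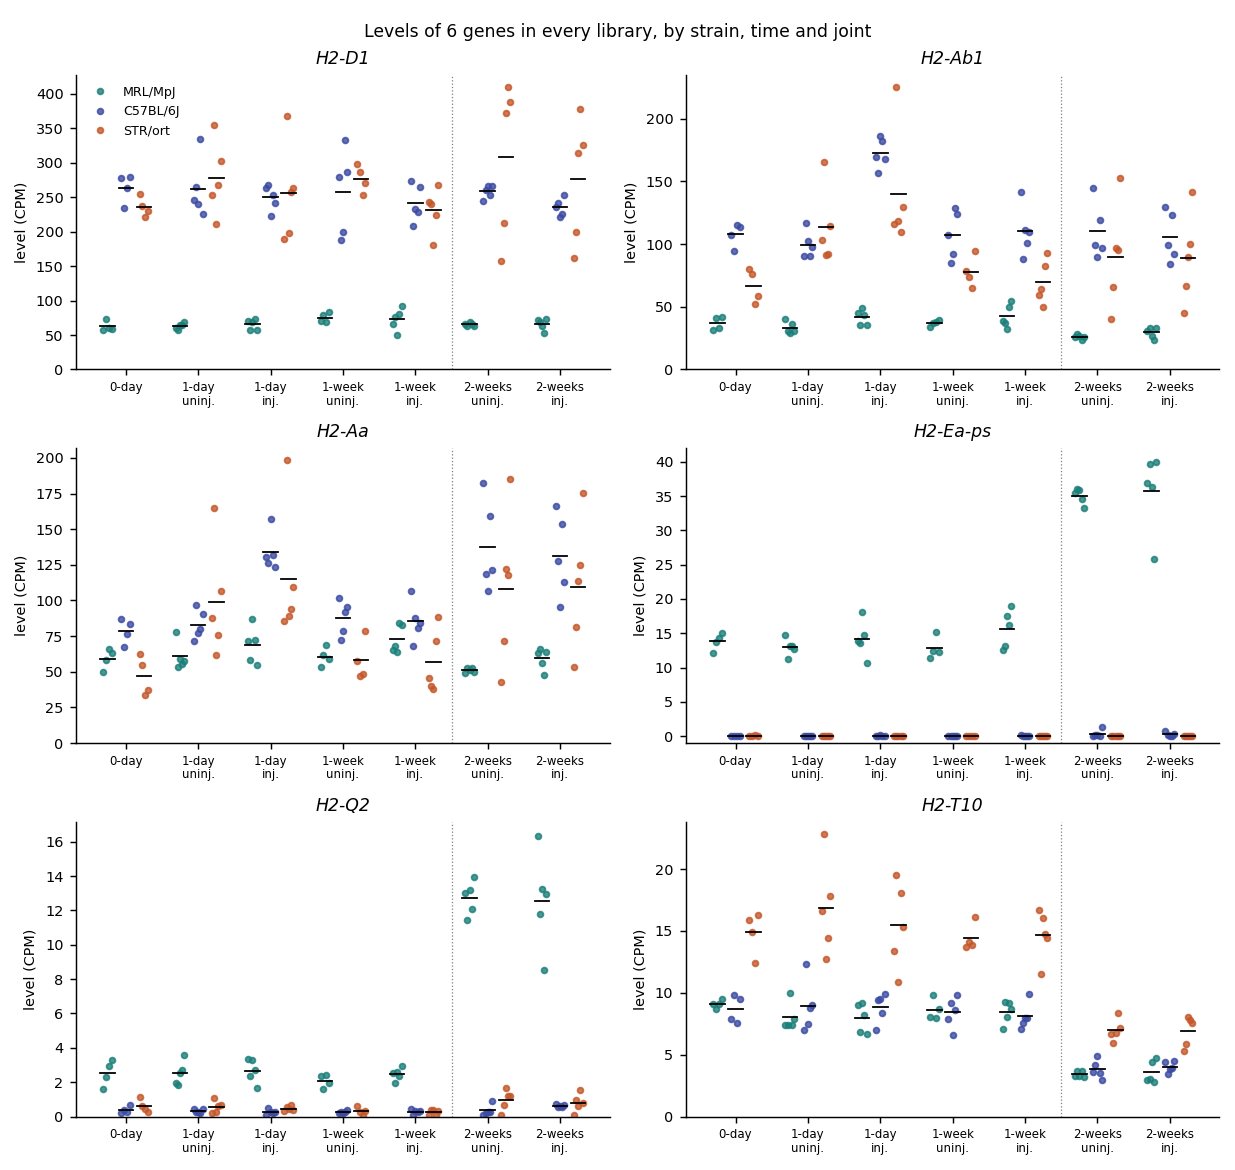
Level in CPM (vertical axis, linear) of 6 members in each of the 100 libraries by time and joint (horizontal axis); each point is a library, each bar a group mean, and the dotted line parts batch 1 from batch 2. MRL/MpJ lies below the other strains for H2-D1 and, in all settings but 1 of STR/ort, for H2-Ab1, is the highest for H2-Ea-ps and H2-Q2, and STR/ort is highest for H2-T10.

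H2-Ea-ps was counted in all MRL/MpJ libraries, with 83 to 205 counts per library in batch 1 (10.7 to 18.9 CPM) and 340 to 518 in batch 2 (25.9 to 39.99 CPM). In STR/ort, 1 of 23 libraries of batch 1 held 1 count and none of the 10 of batch 2 held any. In C57BL/6J, 4 of 24 libraries of batch 1 held 1 count each, while 7 of 10 in batch 2 held 33 counts in all, 15 of them in uninjured replicate 5 and 10 in injured replicate 1. Where a group held no count, its level was at least 160-fold lower than in MRL/MpJ (STR/ort, uninjured 1-week joints) and at least 682-fold lower at the most (STR/ort, injured 2-weeks joints), taking 3 counts over the group as the floor. For C57BL/6J the bounds were 281-fold in uninjured 1-day and 214-fold in uninjured 1-week joints. The gene stands in GENCODE at chr17:34341959-34344645.

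Cd74, the invariant chain that guards the class II groove, was at 134, 156, 154 and 152 CPM in MRL/MpJ, 190.2, 174, 204 and 198 in C57BL/6J and 145, 143, 98.9 and 101 in STR/ort at 0-day, and STR/ort was lower than C57BL/6J by a log2 difference of -0.69 (SE 0.11, adjusted p = 0.000113). H2-DMa, one chain of the peptide editor, was at 6.49, 7.91, 7.92 and 7.24 CPM in MRL/MpJ and 16.8, 13.4, 16.1 and 13.0 in C57BL/6J, with no overlap (1.05, SE 0.17, adjusted p = 8.55e-05). It was called higher in C57BL/6J in all 7 settings, by 0.76 to 1.13. H2-DMb1 was at 8.96 to 14.8 CPM in MRL/MpJ, 12.8 to 16.8 in C57BL/6J and 10.4 to 12.7 in STR/ort at 0-day and was called in 3 of 7 settings for C57BL/6J and 2 for STR/ort, higher than in MRL/MpJ each time. Its close copy H2-DMb2 was lower in STR/ort than in MRL/MpJ in 4 of 7, with 0-day ranges of 1.89 to 3.97 CPM in MRL/MpJ and 0.626 to 2.23 CPM in STR/ort. Its 0-day call was lost without any one of MRL/MpJ replicates 2 and 4 and STR/ort replicates 3 and 4 (adjusted p = 0.063 to 0.0847). The log2 difference in those fits was -0.95 to -0.85, past the fold threshold. With RUVg of 2 factors it was -0.42 (adjusted p = 0.539), and the call was lost too. H2-Ob, a chain of the inhibitor of H2-DM that B cells carry, was at 9.78 to 12.4 CPM in MRL/MpJ, 15.3 to 18.4 in C57BL/6J and 10.4 to 13.3 in STR/ort at 0-day. It was called higher in C57BL/6J than in MRL/MpJ in 4 of 7 settings and lower in STR/ort than in C57BL/6J in 4 of 7. Its partner H2-Oa was at 1.38 to 2.995 CPM in MRL/MpJ, 1.28 to 1.85 in C57BL/6J and 1.07 to 1.47 in STR/ort, and was called lower in STR/ort than in MRL/MpJ at 0-day (-0.77, SE 0.28, adjusted p = 0.0406), a call that DESeq2 (adjusted p = 0.0852) and RUVg of 2 factors (adjusted p = 0.256) did not make and that was lost without MRL/MpJ replicate 1 or 2 or any one STR/ort library.

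Of the 18 other class I genes, H2-Q1 and H2-Q2 were highest in MRL/MpJ. H2-Q1 was at 3.29, 3.49, 2.07 and 4.31 CPM in MRL/MpJ at 0-day and at 0.0982 to 0.822 in C57BL/6J and 0.522 to 1.07 in STR/ort. H2-Q2 was at 1.60, 2.33, 2.93 and 3.28 CPM in MRL/MpJ, 0.181 to 0.687 in C57BL/6J and 0.245 to 1.17 in STR/ort. The log2 difference of H2-Q2 from MRL/MpJ was -2.59 (SE 0.42, adjusted p = 0.000105) for C57BL/6J and -1.93 (SE 0.40, adjusted p = 0.00104) for STR/ort, and neither gene overlapped with MRL/MpJ in any of the 7 settings. In batch 2 the MRL/MpJ level of H2-Q2 was 8.52 to 16.4 CPM, against 1.60 to 3.602 in batch 1. The pseudogene H2-K2 was at 10.00 to 13.0 CPM in MRL/MpJ and 6.19 to 8.20 in C57BL/6J (-0.64, SE 0.14, adjusted p = 0.00124), and this 0-day call was lost without MRL/MpJ replicate 1 (-0.57) or C57BL/6J replicate 4 (-0.57), with RUVg of 1 factor (-0.56) and with scaling by 24 housekeeping genes (-0.54), each under the fold threshold. Its log2 difference reached -1.94 at 2-weeks, where MRL/MpJ libraries held 16.7 to 24.9 CPM, against 7.13 to 16.3 in batch 1.

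H2-T10 and H2-T22, near copies that bind a receptor of gamma delta T cells, differed in opposite directions in STR/ort. At 0-day H2-T10 was at 15.9, 14.9, 12.4 and 16.3 CPM in STR/ort, 7.88, 9.81, 7.58 and 9.52 in C57BL/6J and 9.09, 8.72, 9.13 and 9.48 in MRL/MpJ. H2-T22 was at 8.73, 10.9, 9.61 and 9.08 CPM in STR/ort, 24.4, 26.1, 22.7 and 27.9 in C57BL/6J and 22.6, 16.4, 19.3 and 23.8 in MRL/MpJ. Against C57BL/6J, H2-T10 was higher in STR/ort by 0.73 (SE 0.12, adjusted p = 0.000124) and H2-T22 lower, with a log2 difference of -1.44 (SE 0.12, adjusted p = 7.26e-08), with no overlap in any of the 7 settings for either. The ratio of H2-T10 to H2-T22 CPM was 1.13 to 2.26 in STR/ort of batch 1, 0.264 to 0.511 in C57BL/6J and 0.313 to 0.535 in MRL/MpJ. In batch 2 it was 0.513 to 0.95 in STR/ort and at most 0.311 in the other strains. Of the 50-base windows of each gene, about 31% occur in the other, so how reads were split between them was not tested.

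H2-T24 was at 97.3, 112, 111 and 113 CPM in MRL/MpJ and 62.5, 64.3, 45.5 and 49.2 in STR/ort, and the log2 difference of STR/ort from MRL/MpJ was -1.57 to -0.80 over the 7 settings. H2-T3 (the TL antigen) was at 1.54 to 2.61 CPM in STR/ort and 0.465 to 1.30 in MRL/MpJ, a log2 difference of 1.25 (SE 0.31, adjusted p = 0.00434), and with RUVg of 2 factors this 0-day call was lost (1.08, adjusted p = 0.0877). H2-Q10, known as a secreted class I molecule of the liver, was at 21.4 to 25.9 CPM in MRL/MpJ, 12.8 to 15.4 in C57BL/6J and 9.61 to 11.1 in STR/ort. H2-M9 was low everywhere, at 0.799 to 1.16, 0.362 to 1.28 and 0.711 to 2.13 CPM. It was called higher in STR/ort than in C57BL/6J in 6 of 7 settings, by 1.07 to 3.22 over all 7.

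Markers of cell types and interferon-stimulated genes also differed between strains at 0-day. Interferon-stimulated genes were higher in C57BL/6J than in MRL/MpJ for 10 of 14, with sums of 456 to 574 CPM in C57BL/6J, 281 to 318 in MRL/MpJ and 304 to 367 in STR/ort. B cell markers were higher for 6 of 8 (sums of 202 to 280 CPM against 132 to 149) and macrophage markers for 5 of 9 (sums of 624 to 695 CPM against 466 to 530.5). In STR/ort, macrophage markers were lower than in C57BL/6J for 6 of 9 (sums of 381 to 469 CPM) and B cell markers for 0 of 8. T cell markers had sums of 65.1 to 74.2 CPM in MRL/MpJ, 36.1 to 43.3 in C57BL/6J and 21.5 to 28.4 in STR/ort, 2 and 5 of 8 being lower than in MRL/MpJ. Synovial fibroblast markers were higher than in MRL/MpJ for 7 of 7 in C57BL/6J and 6 of 7 in STR/ort (sums of 2802 to 3423 CPM in MRL/MpJ, 5360 to 8499 in C57BL/6J and 6478 to 11000 in STR/ort). Fast muscle markers were lower in C57BL/6J than in MRL/MpJ for 8 of 8 (sums of 30690 to 48610 against 65910 to 80640 CPM), with sums of 67910 to 77740 CPM in STR/ort. In C57BL/6J 6 of 6 cartilage, 4 of 7 bone and 2 of 8 dendritic cell markers were higher than in MRL/MpJ, and in STR/ort 6 of 6 erythroid markers were lower. No marker of these lists was at 0 in any group. Their part in the differences of the MHC genes was not tested.

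Injury changed few of these genes. In injured against uninjured contralateral joints, 7 of 360 tests of a member (9 comparisons of strain and time) were called (1.94%), against 4.32% over all genes, and 31 had an unadjusted p under 0.05. The 7 calls fell on 5 genes: H2-Aa, H2-Ab1 and H2-Eb1 rose and H2-Q10 fell in C57BL/6J at 1-day, H2-Q10 fell and H2-M9 rose in STR/ort at 1-week, and H2-M9 rose in STR/ort at 2-weeks. No member was called in MRL/MpJ at any time, where DESeq2 and every other alternative also gave 0 and 0, 2 and 0 members had an unadjusted p under 0.05 at the 3 times in order. The share of all genes called was 2.02%, 3.13% and 1.16% there.

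At 1-day in C57BL/6J, 4 of 40 members (10.0%) were called, against 5.6% of all genes (4.26% higher and 1.34% lower). H2-Aa was at 131, 126, 157, 132 and 124 CPM in the 5 injured and 71.5, 96.7, 77.0, 80.02 and 90.2 in the 5 uninjured joints. H2-Ab1 was at 169.5, 156, 186, 182 and 168 CPM in injured and 90.3, 117, 102, 90.7 and 98.0 in uninjured joints. H2-Eb1 was at 131, 121, 137, 144 and 126 CPM and 65.7, 77.6, 74.2, 73.5 and 63.8 CPM. For each of the 3 chains all injured joints lay above all uninjured ones. The log2 changes were 0.68 (SE 0.20, adjusted p = 0.0166) for H2-Aa, 0.79 (SE 0.16, adjusted p = 0.000453) for H2-Ab1 and 0.89 (SE 0.17, adjusted p = 0.00023) for H2-Eb1 in edgeR's quasi-likelihood test. Cd74 levels were 239 to 292 CPM in injured and 165 to 209 in uninjured joints, without overlap, and its log2 difference of 0.52 (SE 0.16, adjusted p = 0.0167) stayed under the fold threshold. Ciita levels were 11.8 to 14.9 CPM against 5.73 to 9.84, also without overlap, with 0.74 (SE 0.27, adjusted p = 0.0553). Ciita was called with filterByExpr (adjusted p = 0.0494), RUVg of 2 factors (adjusted p = 0.0347), RUVg of 1 factor without B2m (adjusted p = 0.045), a fit of the compared groups only (adjusted p = 0.00128) and the replicate block (adjusted p = 0.000232). The accessory genes H2-DMa and H2-DMb1 gave 0.09 and 0.27, and the class I genes H2-K1 and H2-D1 gave -0.05 and -0.07.

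**Figure D4:**
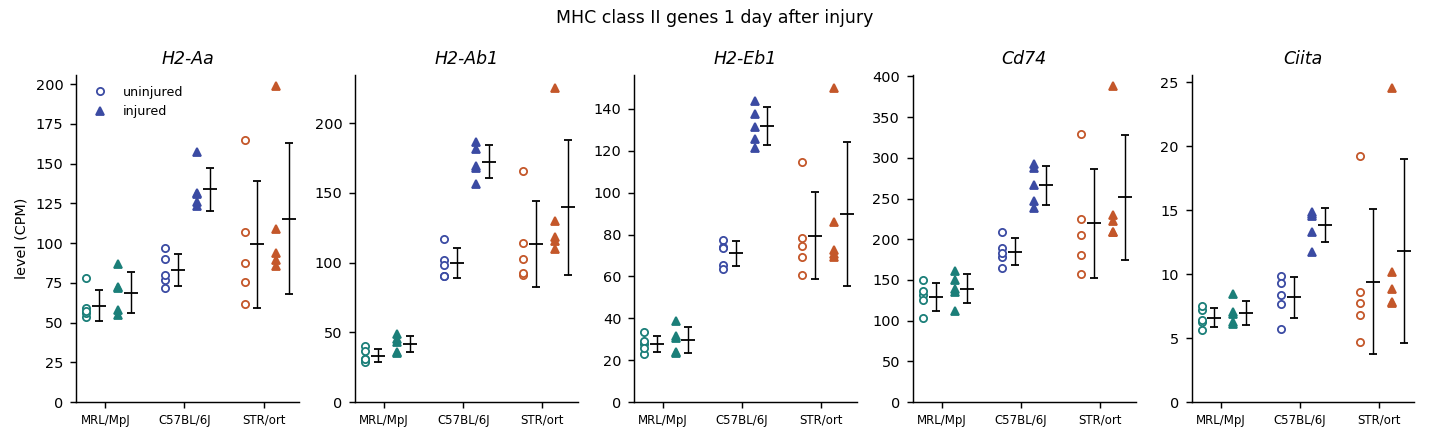
Level in CPM (vertical axes, from 0) of 4 class II genes and their regulator Ciita at 1-day in uninjured (open circles) and injured (filled triangles) joints of 3 strains, with mean and SD beside the points (n = 5 per group). In C57BL/6J the injured joints lie above the uninjured joints for all 5 genes, in the other strains the points overlap, and the STR/ort library numbered 2 is the highest of each joint for H2-Aa, H2-Ab1 and Cd74.

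In MRL/MpJ at 1-day the same chains gave log2 differences of 0.20 (H2-Aa), 0.34 (H2-Ab1) and 0.11 (H2-Eb1), and in STR/ort 0.19, 0.28 and 0.15, none of them called. Whether the injury change differed between strains was tested as an interaction. For H2-Eb1 it was 0.78 (SE 0.25, adjusted p = 0.174) between C57BL/6J and MRL/MpJ and -0.74 (SE 0.23, adjusted p = 0.0726) between STR/ort and C57BL/6J, neither past the threshold. Without the STR/ort libraries numbered 2 of both joints, which stand apart, the same interactions were 0.77 (adjusted p = 0.014) and -0.82 (adjusted p = 0.00188), both called. This removal was chosen after the data were seen, and the injured library numbered 2 lay apart for H2-Eb1 itself (150.1 CPM). These 2 calls are therefore a description only. Over 9 interactions 1 of 360 tests of a member was called (0.278%, against 0.557% over all genes; 20 had an unadjusted p under 0.05). With the replicate number as a block the count was 3, the calls of H2-Eb1 (0.80 and -0.77) being among them, and without both STR/ort libraries numbered 2 it was 2.

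The called interaction was that of H2-Q10 at 1-day. In C57BL/6J, H2-Q10 was at 9.195, 10.4, 6.17, 7.04 and 7.79 CPM in injured and 13.1, 13.0, 11.9, 11.3 and 12.8 in uninjured joints and fell by a log2 change of -0.62 (SE 0.12, adjusted p = 0.000557). Without injured replicate 3 or 4 the change was -0.53 or -0.56, under the fold threshold. In STR/ort the difference was 0.09, and the interaction was 0.70 (SE 0.17, adjusted p = 0.0112). It was not called without both STR/ort libraries numbered 2. Without both C57BL/6J libraries numbered 2 it was 0.80 (adjusted p = 0.00406), and the interaction between C57BL/6J and MRL/MpJ was called too (-0.72, adjusted p = 0.0364). Both removals were chosen after the data were seen. About 19.1% of the 50-base windows of H2-Q10 occur in other genes.

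Values of other lists moved with the class II rise in C57BL/6J at 1-day. Of 9 macrophage markers, 4 rose: Adgre1 by 0.94 (SE 0.10, adjusted p = 1.92e-08), C1qa by 0.73 (SE 0.10, adjusted p = 5.47e-06), C1qb by 1.04 (SE 0.16, adjusted p = 1.68e-05) and C1qc by 0.74 (SE 0.10, adjusted p = 2.05e-06). The sums of the 9 markers were 899.7 to 1102 CPM in injured and 656 to 750 in uninjured joints. None of 8 dendritic cell markers was called (sums of 70.9 to 82.4 CPM against 59.9 to 69.5), and of 8 B cell markers 0 rose and 1 fell (sums of 158 to 198 CPM against 188 to 288). The dendritic sums did not overlap although no single marker was called. Of 7 synovial fibroblast markers 3 rose, with sums of 9603 to 14910 CPM in injured and 5154 to 6286 in uninjured joints. Of 8 monocyte and neutrophil markers 1 rose and 0 fell, while their sums were lower in injured joints, 5783 to 7201 against 8028 to 9731 CPM. The sums of both lists did not overlap between the joints. In MRL/MpJ and STR/ort at 1-day 0 of 9 macrophage markers were called. No marker was at 0 in any group. The part of these cells in the class II change was not tested.

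Of 10 further class II pathway genes, 3 rose in C57BL/6J at 1-day. They were the asparaginyl endopeptidase Lgmn (1.35, SE 0.09, adjusted p = 1.73e-11) and the cathepsins Ctss (1.08, SE 0.13, adjusted p = 2.04e-07) and Ctsl (0.65, SE 0.08, adjusted p = 1.05e-06), which cut antigens and the invariant chain. Lgmn and Ctss also rose in MRL/MpJ at 1-day, by 0.91 (SE 0.09, adjusted p = 7.16e-08) and 0.70 (SE 0.13, adjusted p = 0.000637), and in STR/ort, by 0.80 (SE 0.09, adjusted p = 2.19e-07) and 0.69 (SE 0.13, adjusted p = 0.00032). Lgmn rose again in STR/ort at 2-weeks, by 0.63 (SE 0.07, adjusted p = 5.46e-08). Of 7 measured genes of interferon gamma signalling, only the feedback inhibitor Socs1 was called, rising in C57BL/6J at 1-day by 0.89 (SE 0.25, adjusted p = 0.0102) and in STR/ort at 1-week by 0.86 (SE 0.30, adjusted p = 0.0364) and at 2-weeks by 0.64 (SE 0.21, adjusted p = 0.0434). None of the 11 class I pathway genes was called in any of the 9 injury comparisons. Their sums nevertheless did not overlap at 1-day in C57BL/6J (2248 to 2888 CPM in injured against 1814 to 2226 in uninjured joints) and in MRL/MpJ (1959 to 2146 against 1745 to 1909). The same held in STR/ort at 1-week (3208 to 4025 against 2520 to 3018 CPM). In the other comparisons the sums overlapped.

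At 1-week in STR/ort, 2 of 40 members (5.0%) were called, against 9.21% of all genes (5.67% higher and 3.54% lower). H2-M9 was at 5.11, 4.44, 4.01, 3.96 and 3.19 CPM in 5 injured and 2.51, 2.66, 1.40 and 2.25 in 4 uninjured joints, and H2-Q10 at 9.05, 6.40, 5.88, 10.2 and 10.5 CPM and 13.3, 15.0, 13.0 and 14.5 CPM. Injured and uninjured joints did not overlap for either gene. The log2 changes were 0.92 (SE 0.24, adjusted p = 0.00583) and -0.73 (SE 0.15, adjusted p = 0.000436). With the replicate number as a block the count was 5. The labels name no animals at this time, and the numbers passed only the check of pairing given below. H2-DMa at -0.59 (adjusted p = 0.00095), H2-DMb2 at -0.82 (adjusted p = 0.0313) and H2-Q6 at -0.73 (adjusted p = 0.00543) were called as well. Without the block H2-DMa gave -0.52 (SE 0.16, adjusted p = 0.0183), under the fold threshold. The count was 4 without injured replicate 5 and 4 without uninjured replicate 2. In the same joints 6 of 8 fast muscle markers, 4 of 8 monocyte and neutrophil markers and 4 of 7 bone markers (1 other bone marker being higher) were lower and 3 of 7 synovial fibroblast markers higher, with sums of 12960 to 28260 against 24820 to 47330 CPM for fast muscle, 4746 to 6732 against 7794 to 10510 CPM for monocytes and neutrophils, 13930 to 25090 against 11260 to 16330 CPM for bone and 25970 to 36540 against 11420 to 29520 CPM for synovial fibroblasts. The bone sum and its count thus differed in direction. The sums of interferon-stimulated genes were 233 to 299 against 308 to 346 CPM, without overlap, and 0 of 14 were called. Their part in these changes was not tested.

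At 2-weeks in STR/ort, H2-M9 was the only member called (2.5% of the members, against 4.66% of all genes, 4.34% higher and 0.318% lower). It was at 1.70, 2.10, 1.84, 2.97 and 2.29 CPM in injured and 0.352, 1.13, 1.53, 1.01 and 1.35 in uninjured joints, and rose by a log2 change of 1.00 (SE 0.24, adjusted p = 0.00458). The libraries did not overlap, and counts of H2-M9 were low, 3 to 33 per STR/ort library of batch 2. The count of called members was 2 without uninjured replicate 1. Of 7 synovial fibroblast markers 5 were higher in the injured joints (sums of 10550 to 15150 against 3738 to 6551 CPM), and of 6 cartilage markers 3 (sums of 3898 to 5708 against 2271 to 3398 CPM). Of 7 bone markers 1 was higher, and the bone sums did not overlap (13600 to 17920 against 8683 to 11940 CPM). Their part was not tested. In C57BL/6J at 1-week and 2-weeks no member was called by edgeR or DESeq2, against 5.82% and 2.95% of all genes, and 1 and 5 had an unadjusted p under 0.05.

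The STR/ort animals of 2-weeks differed among themselves more than their joints did. The class I gene H2-K1 was at 146, 219, 386, 472 and 424 CPM in the injured joints of animals 1 to 5 and at 129.9, 239, 459.7, 488 and 496 in their uninjured joints. Animals 1 and 2 were low and animals 3, 4 and 5 high in both joints. H2-D1 gave 162, 199, 314, 378 and 326 CPM in injured and 157, 213, 372, 410 and 388 in uninjured joints, in which the same animals were low. H2-Q7 was at 5.89, 20.9, 60.7, 68.7 and 58.0 CPM in injured and 7.16, 19.6, 74.5, 79.2 and 75.7 in uninjured joints (chosen after its values were seen). B2m was at 280.1, 346, 544, 657 and 612 CPM and 247, 356, 612, 651 and 709 CPM, and H2-Aa at 53.5, 81.1, 114, 125 and 176 CPM and 42.6, 71.8, 122, 118 and 185 CPM.

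Over 18 members (the light chain, Nlrc5, Tap1, Psmb9, Cd74, 3 class II chains and 10 class I genes), the median absolute log2 difference between the joints of the same STR/ort animal was 0.15, against 0.81 between an injured and an uninjured joint of different animals, and the joints of an animal were the closer for 18 of 18 genes. In C57BL/6J these medians were 0.185 and 0.244 (closer for 13 of 18) and in MRL/MpJ 0.159 and 0.148 (7 of 18). No rule for choosing these 18 is stated, and the same share over all genes is not given. Members also moved together within groups (H2-K1 with H2-D1 at a correlation of 0.935), so the 18 are not separate results. Interferon-stimulated genes varied with the same animals, their sum being 134, 179.8, 257, 317 and 262 CPM in the injured and 146, 203, 315, 316 and 320.4 in the uninjured joints of STR/ort animals 1 to 5; their part was not tested. The replicate spread of STR/ort at 2-weeks thus covered a change of 496 against 129.9 CPM for H2-K1 in uninjured joints alone, while H2-K1 in the 5 uninjured MRL/MpJ joints lay between 183 and 201 CPM.

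**Figure D5:**
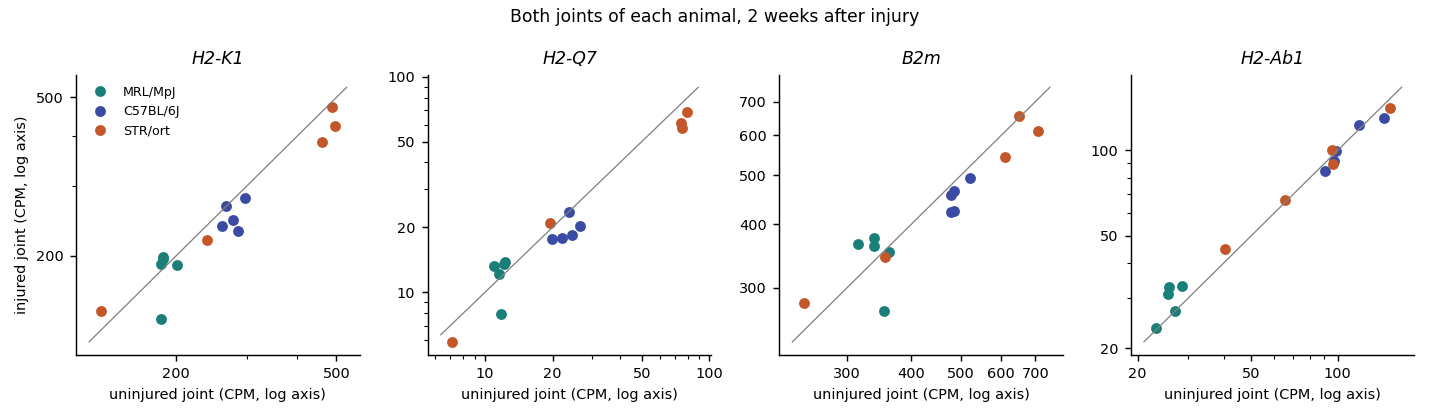
Level in the injured (vertical axis) against the uninjured joint (horizontal axis) of each of 15 animals at 2-weeks for 4 members, in CPM on log axes; the line marks equal levels. The 5 STR/ort animals are spread along the line, for H2-K1 from 129.9 to 496 CPM in uninjured joints, where MRL/MpJ spans 183 to 201 CPM.

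Libraries with the same number stood apart at 1-day in STR/ort and in C57BL/6J. The STR/ort libraries numbered 2 held 199 CPM of H2-Aa in the injured and 165 in the uninjured joint, 225 and 166 CPM of H2-Ab1, 554 and 521 CPM of H2-K1 and 388 and 329 CPM of Cd74. Their sums of interferon-stimulated genes were 815 and 791 CPM, against 159 to 314 in the other 8 STR/ort 1-day libraries. Both were the highest of their group for each of these 4 genes. Without these libraries, a removal chosen after the data were seen, the members called in C57BL/6J at 1-day numbered 5. Ciita was added with a log2 change of 0.73 (adjusted p = 0.000233). The C57BL/6J libraries numbered 2 stood apart in interferon-stimulated genes, with sums of 711 CPM in the injured joint, against 407 to 464 in the other 4, and 693 in the uninjured joint, against 468 to 575. Their class II levels are given above as the second value of each group. Without both, 4 members were called in C57BL/6J at 1-day, H2-Aa (0.75, adjusted p = 0.0216), H2-Ab1 (0.88, adjusted p = 0.000632), H2-Eb1 (0.94, adjusted p = 0.000704) and H2-Q10 (-0.71, adjusted p = 0.000259).

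Levels at 2-weeks can be set beside those at 1-week only as values, since the batch changed. In uninjured joints, Psmb8, B2m and H2-T24 were lower at 2-weeks in all strains: the ratio of the 2-weeks to the 1-week mean was 0.416, 0.525 and 0.528 for Psmb8, 0.626, 0.645 and 0.581 for B2m and 0.527, 0.488 and 0.642 for H2-T24, always with MRL/MpJ first, C57BL/6J next and STR/ort last. Cd74 gave 1.1, 1.65 and 2.0 and H2-Aa 0.845, 1.57 and 1.86. For Cd74 and H2-Aa the ratio was thus above 1.5 in every strain except MRL/MpJ, a difference that was not tested. Of the 38 members whose means were all above 0, 5 were lower and 0 higher in every strain by more than 1.5 times. H2-M10.3 was at 0.276, 0.188 and 0.249 CPM at 1-week and at 0, 0 and 0.0235 CPM at 2-weeks, and H2-Ea-ps was at 0 in C57BL/6J and STR/ort at 1-week.

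The class II chains H2-Aa, H2-Ab1 and H2-Eb1 and Cd74 moved together from library to library within groups. After removal of group means, the Pearson correlation of H2-Aa over 100 libraries was 0.938 with H2-Ab1, 0.932 with H2-Eb1 and 0.948 with Cd74. With other class II genes it was lower, at 0.785 with H2-DMb1, 0.777 with H2-DMa, 0.472 with H2-Ob, 0.329 with H2-DMb2 and 0.27 with H2-Oa. With H2-Ea-ps it was 0.0606. That gene held almost no counts outside MRL/MpJ, so this value cannot show how it moved with H2-Aa. The non-member genes most like H2-Aa, H2-Ab1, H2-Eb1 and Cd74, by the median of their 4 correlations, were AW112010 (0.749), the receptor gene Klrk1 (0.736), the cytokine receptor chain Il2rg (0.731), Samhd1 (0.728) and the macrophage gene Aif1 (0.722). Among the members the medians were 0.826 for H2-K1, 0.786 for Nlrc5, 0.739 for B2m and 0.713 for Ciita. The macrophage markers Adgre1 and Csf1r gave 0.557 and 0.494, the B cell markers Cd79a and Ms4a1 0.496 and 0.399, and the T cell marker Cd3e 0.414. Of the dendritic cell markers, Itgax gave 0.437, Flt3 0.343, Cd209a 0.205 and Zbtb46 -0.139. The libraries share strains, batches, animals and the spread of the STR/ort animals described above, so these values are a description.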

How the data were processed

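Whole-joint poly(A) RNA was sequenced by the authors in 100 libraries. Per the labels and the study's methods, reads were aligned to mm10 with TopHat2 2.0.11 and counted per RefSeq gene with featureCounts. How strand and multiply mapped reads were treated is not given in the sources used here. The deposited values were raw counts. Of 17313 rows, 3 repeats were dropped, and requiring 2 or more counts in 5 or more libraries removed 0 of 17310 genes. No 2 libraries of a group were identical (190 pairs). Totals of 6182016 to 20986027 counts set the precision, and floors (3 counts over a group) cover counting error only.

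Groups were taken from the labels. One edgeR 4.0.16 quasi-likelihood fit with TMM factors (R 4.3.3) was made per time point, without a block, and p-values were adjusted by the Benjamini-Hochberg method over all genes. Genes with an adjusted p below 0.05 and a fold above 1.5 were called. CPM values use TMM factors. The study removed unwanted variation with RUVSeq and 25 housekeeping genes, among them B2m. Its number of factors is not given, so that RUVg with 1 or 2 factors, computed from its formula, was an alternative, as were DESeq2 1.42.0, other size factors and filters, and leaving out each library. Leaving out libraries that stood apart (3 alternatives) was chosen after seeing the data.

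Pairs of joints share an animal at 2-weeks by the labels (15 pairs). Elsewhere the replicate numbers were checked by the correlation of deviations from the group means. In STR/ort at 1-week all 4 pairs were over 0.1 (0.102 to 0.231). The other groups of 1-day and 1-week did not pass this check. At 2-weeks, where the labels name the animal, it gave 0.133 to 0.215 in C57BL/6J and 0.139 to 0.262 in STR/ort. In MRL/MpJ it gave -0.161 to 0.0755 for true pairs. Failing the check thus does not show that joints come from different animals.

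The members and lists were chosen with earlier results of these data known. Named with values were all members of the classical, accessory, light chain, regulator, loading and immunoproteasome classes, other members called in all 7 settings of a strain pair or in an injury or interaction test, and at most 4 genes per pathway list by adjusted p. On simulated data the edgeR step recovered 94% of genes changed 2-fold and 98% of those changed 4-fold in the 0-day comparison of STR/ort with C57BL/6J, with 6 false calls, over 17310 genes.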

Additional observations from a re-analysis of the deposited data

Results flagged for a closer look

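In groups of 4 or 5 libraries, a library was noted where its gap to the nearest other, over the group's range, passed Dixon's critical value. Of 244 groups of a gene, 19 did so, and chance gives about 1 in 20. STR/ort 1-day injured replicate 2 was high for H2-Aa (198.7 CPM), H2-Ab1 (225 CPM), H2-Eb1 (150.1 CPM) and Cd74 (388 CPM). MRL/MpJ 2-weeks injured replicate 4 lay apart for H2-K1 (139 CPM), H2-Ea-ps (25.9 CPM) and B2m (269 CPM). C57BL/6J 2-weeks uninjured replicate 5 lay apart for H2-Ea-ps (1.39 CPM), B2m (522 CPM) and H2-Q2 (0.923 CPM).

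H2-Aa lay apart in MRL/MpJ 1-day uninjured replicate 1 (77.9 CPM) and in C57BL/6J 1-day injured replicate 3 (157 CPM). H2-K1 lay apart in MRL/MpJ 2-weeks uninjured replicate 3 (200.7 CPM) and B2m in MRL/MpJ 0-day replicate 4 (602 CPM). H2-Q1 lay apart in MRL/MpJ 1-day uninjured replicate 5 (4.17 CPM) and H2-T10 in MRL/MpJ 1-day uninjured replicate 3 (9.98 CPM). For H2-Ea-ps, C57BL/6J 0-day replicate 3 (0.0913 CPM), STR/ort 0-day replicate 3 (0.104 CPM) and C57BL/6J 1-day injured replicate 3 (0.131 CPM) were noted, where 1 count stood beside libraries at 0.

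The injury effect on H2-Q10 at 1-day differed between STR/ort and C57BL/6J by a log2 interaction of 0.70 in edgeR's quasi-likelihood test (adjusted p = 0.0112).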

How the results depend on the processing

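No result turned its direction. Under RUVg with 1 factor, RUVg with 2 factors and RUVg with 1 factor without B2m, the members called in injured STR/ort joints at 1-week numbered 4, 4 and 4 in place of 2, those between STR/ort and C57BL/6J at 0-day 4, 6 and 5 in place of 12, and the interactions 2, 3 and 2 in place of 1. RUVg with 2 factors gave 5 in place of 14 between C57BL/6J and MRL/MpJ at 0-day and 4 in place of 8 in all 7 settings. The members called in all 7 settings between STR/ort and C57BL/6J, 2 in number, became 0 with RUVg of 1 factor and 1 with RUVg of 1 factor without B2m, with scaling by 24 housekeeping genes, and without the C57BL/6J libraries that held 10 or more counts of H2-Ea-ps. DESeq2, a fit restricted to the groups compared, leaving out both STR/ort 1-day libraries numbered 2 and leaving out both C57BL/6J 1-day libraries numbered 2 gave 2 interactions each. The restricted fit gave 1 called member in injured C57BL/6J joints at 2-weeks in place of 0. The cause was not tested. The share of all genes called under these alternatives is not given here.

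With the replicate number as a block, the pairing gave 5 called members in STR/ort at 1-week and 3 interactions, and in C57BL/6J at 1-day 5 in place of 4. The other injury counts did not change. The check of shared numbers gave correlations of -0.0745 to 0.127 (MRL/MpJ), 0.0483 to 0.16 (C57BL/6J) and -0.131 to 0.245 (STR/ort) at 1-day and of 0.0454 to 0.0973 (MRL/MpJ) and -0.0224 to 0.269 (C57BL/6J) at 1-week.

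With single libraries left out there were 14 to 16, 8 to 14 and 16 to 19 calls at 0-day (C57BL/6J against MRL/MpJ, STR/ort against C57BL/6J, STR/ort against MRL/MpJ), 7 to 9, 1 to 3 and 6 to 10 in all 7 settings in the same order, 3 to 5 in injured C57BL/6J joints at 1-day, 2 to 4 and 1 to 2 in injured STR/ort joints at 1-week and 2-weeks, 0 to 0 in the other injury comparisons and 1 to 3 interactions. The interactions numbered 2 without C57BL/6J 1-day injured replicate 2, 3 without STR/ort 1-day injured replicate 2 and 2 without STR/ort 1-day uninjured replicate 3. The 2 members called in all 7 settings between STR/ort and C57BL/6J became 1 without C57BL/6J 2-weeks uninjured replicate 4 or 5, STR/ort 2-weeks injured replicate 1 or 2, or STR/ort 2-weeks uninjured replicate 1 or 2. Depth limits H2-Ea-ps outside MRL/MpJ, H2-M9 and the 4 members under 1 CPM.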
